A study of Mus musculus with 4 samples.

Results

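The genes of the aminoacyl-tRNA synthetases were followed through RNA polymerase II (Pol II) ChIP-seq of mouse brain endothelial cells (ECs). The members were a list of 36 gene symbols, 20 for cytosolic enzymes (no suffix, or suffix 1) and 16 for mitochondrial enzymes (suffix 2), among 21951 annotated protein-coding genes. All 36 were found, with the symbol Mars standing for Mars1, and the rule that lists them uses no measured value. Each gene was described by whether the peak list of a library held a Pol II peak at its promoter or in its gene body.

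Pol II was measured in flow-sorted brain ECs from 2 groups with 2 libraries each, to ask where the polymerase sat in aged ECs and in young ECs that lacked Klf4. Old WT Cre mice, labelled CdH5 CRE, carried the tamoxifen-inducible, CDH5-driven Cre recombinase and were old. Young EC-K4KO mice carried the same Cre together with floxed Klf4 and were young, so that Klf4 was deleted in cells that express CDH5. Genotype and age therefore differed together and cannot be told apart, and both groups shared the Cre. The paper's methods call the ChIP-seq replicates biological, while the labels do not say whether they came from separate animals or pools. How much of the spread between replicates is technical is therefore not known.

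Aminoacyl-tRNA synthetases join each amino acid to its own transfer RNA, the step that fixes the genetic code during translation. Most amino acids are served by one nuclear gene for the cytosol and another for mitochondria, while Gars (glycine) and Kars (lysine) each supply both compartments and were counted here as cytosolic. Several cytosolic enzymes sit in one large complex, and many cytosolic synthetase genes are known targets of ATF4, the transcription factor of the amino acid response, which binds with a C/EBP partner to the letters TGATGCAA.

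Depth, as the number of fragments the peak caller used, was 65734178 for old WT Cre replicate 1, 27455452 for its replicate 2, 35227929 for young EC-K4KO replicate 1 and 22705175 for its replicate 2. Young EC-K4KO replicate 2 stood apart, since it had the fewest fragments but 235591 peaks, against 35638 to 78851 in the other libraries. The smallest pileup (fragments stacked at a summit) of any called peak was 13, 8, 9 and 7 in that order, in which values for the 4 libraries are also given below, and calls also depended on the local background, so a gene without a called peak was not shown to lack Pol II. At Klf4, the targeted gene, a promoter peak was called in the young EC-K4KO pair and not in the old WT Cre pair, with fold enrichments of 4.20 and 4.17; such a peak does not measure the transcript and does not check the genotype. Of 10 endothelial marker genes, 5, 6, 1 and 6 had a promoter peak, against 25.6%, 24.5%, 10.6% and 67.5% of all protein-coding genes. Ocln, a tight junction gene, had one in all 4, and Pecam1, Tek and Slco1a4 had none in any. Of 22 marker genes of neurons, astrocytes, microglia, oligodendrocytes and mural cells, 5, 2, 1 and 14 had a promoter peak, to be read against the same shares of all genes, and their part in the results below was not tested.

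The promoters of 3 cytosolic synthetase genes held the ATF4 letters TGATGCAA on either strand. Promoter sequences of 300 bases, 250 before and 50 after the gene start, were taken from RefSeq on GRCm38.p6 and were used for 26 of the 36 members, 12 cytosolic and 14 mitochondrial. The 3 promoters were those of Iars (isoleucine), Tars (threonine) and Yars (tyrosine), so 3 of 12 cytosolic and 0 of 14 mitochondrial promoters matched, while 0.895% of all 32851 RefSeq promoters did. The stretches are shown because their Pol II values are compared further on. Each is written 5′ to 3′ along the gene's own strand, with the match in capitals; TTGCATCA is TGATGCAA read on the opposite strand. They lie at chr13:49682126-49682155 for Iars on the plus strand, at chr15:11399655-11399684 for Tars on the minus strand, and at chr4:129189895-129189924 for Yars on the plus strand.
Iars: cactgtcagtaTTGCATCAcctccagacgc
Tars: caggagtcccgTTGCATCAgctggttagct
Yars: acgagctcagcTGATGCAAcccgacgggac

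The match began 15 bases before the RefSeq start in Tars, and 7 and 3 bases after it in Iars and Yars. By the GENCODE annotation the Tars match lies upstream of the first exon and the Iars match in a 5′ UTR, while the Yars match takes in the annotated start codon. RefSeq starts lay within 100 bp of an annotated transcription start site (TSS) for 23 of the 26 members, and 143 bp from it for Yars. With one letter left free (TGATGNAA, which includes every TGATGCAA match) Gars was added, for 4 cytosolic promoters and no mitochondrial one, against 3.97% of all promoters. AAGATGGCG, the letters of YY1, were found in 4 promoters, of which 3 were mitochondrial (Aars2, Wars2 and Yars2) and 1 cytosolic (Farsa, a subunit of the phenylalanine enzyme), against 1.4% of all promoters. These stretches are shown because the match lay at nearly the same place in the mitochondrial genes, beginning 19, 6 and 16 bases after the start of Aars2, Wars2 and Yars2. In these 3 genes the ATG inside the match is the annotated start codon, so the same letters also open the coding sequence. In Farsa the match began 94 bases before the start and lay outside the exons. The capitals mark the match, and all 4 lie on the plus strand, at chr17:45506841-45506870, chr3:99141086-99141115, chr16:16302971-16303000 and chr8:84856882-84856911 in the order given.
Aars2: gcccggagctAAGATGGCGgtggcgttggc
Wars2: cgcccttctcAAGATGGCGctgttctctgt
Yars2: cgtgtcccgcAAGATGGCGgcgcccatgct
Farsa: tgccacacttAAGATGGCGacgaccagctt

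The ETS letters ACTTCCGG were found in Farsa, Mars (methionine) and Rars2 (mitochondrial arginine), against 3.89% of all promoters. The NRF1 letters GCGCATGCG were found in Vars2 (mitochondrial valine) and Wars2 (mitochondrial tryptophan), against 1.75%. The median GC content of the promoters was 56.3% for cytosolic and 58.2% for mitochondrial members and 52.7% for all promoters. A match describes letters and not a bound site, and the ATF4, ETS, NRF1 and YY1 proteins were not measured.

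At promoters, most synthetase genes had a Pol II peak in young EC-K4KO replicate 2 and few had one in young EC-K4KO replicate 1. A promoter peak is a peak with at least 1 base within 1500 bp of a TSS of the gene, at the authors' q cutoff of 0.01. For old WT Cre, 10 and 14 of 36 genes had one, against 25.6% and 24.5% of all protein-coding genes. For young EC-K4KO, 3 and 28 of 36 had one, against 10.6% and 67.5%. The members' own shares were 27.8%, 38.9%, 8.33% and 77.8%, so the young EC-K4KO pair lay on either side of the old WT Cre pair, as it did over all genes. When each list was limited to its 35638 leading peaks by q-value, the length of the shortest list, 5, 14, 3 and 15 members had a promoter peak. The shares over all genes were then 11.8%, 22.6%, 10.6% and 27.7%.

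**Figure D1:**
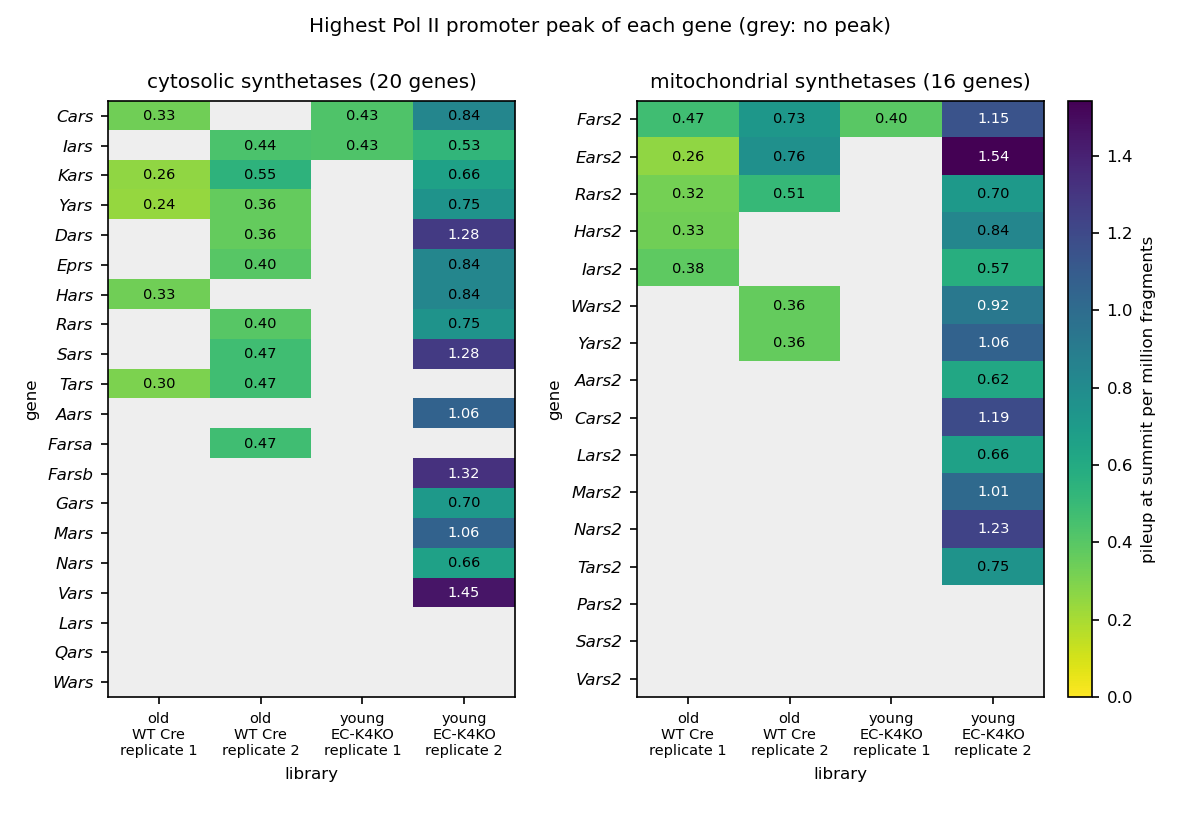
Rows are the 36 synthetase genes, cytosolic on the left and mitochondrial on the right, and columns are the 4 libraries; colour and number give the pileup at the highest promoter peak per 1000000 fragments of the library (FPM), and grey marks no peak. The column of young EC-K4KO replicate 1 is filled for 3 genes and that of young EC-K4KO replicate 2 for 28, and the Fars2 row alone is filled in all 4.

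Promoter peaks were about as frequent at the members as at genes of their own length, within the spread between libraries. Synthetase genes had a median length of 24944.5 bp (16639 bp over all genes), so the share over all genes was taken in 10 classes of gene length and weighted to match the members. That share was 27.8%, 27.2%, 11.3% and 72.1% in the 4 libraries, and the members exceeded it by 3.59 ± 6.47 percentage points (SD, n = 4 libraries). The difference was smaller than its spread and ran from -2.99 in young EC-K4KO replicate 1 to 11.7 in old WT Cre replicate 2. Cytosolic genes had a promoter peak in 5, 9, 2 and 15 of 20 cases and mitochondrial genes in 5, 5, 1 and 13 of 16. Their difference of 1.25 ± 9.57 percentage points (SD, n = 4) was above 0 in 2 libraries and below it in 2, so the compartments did not differ beyond the spread between libraries. Its sign turned under stricter peak thresholds and a narrower window, with values given in the closing section.

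**Figure D2:**
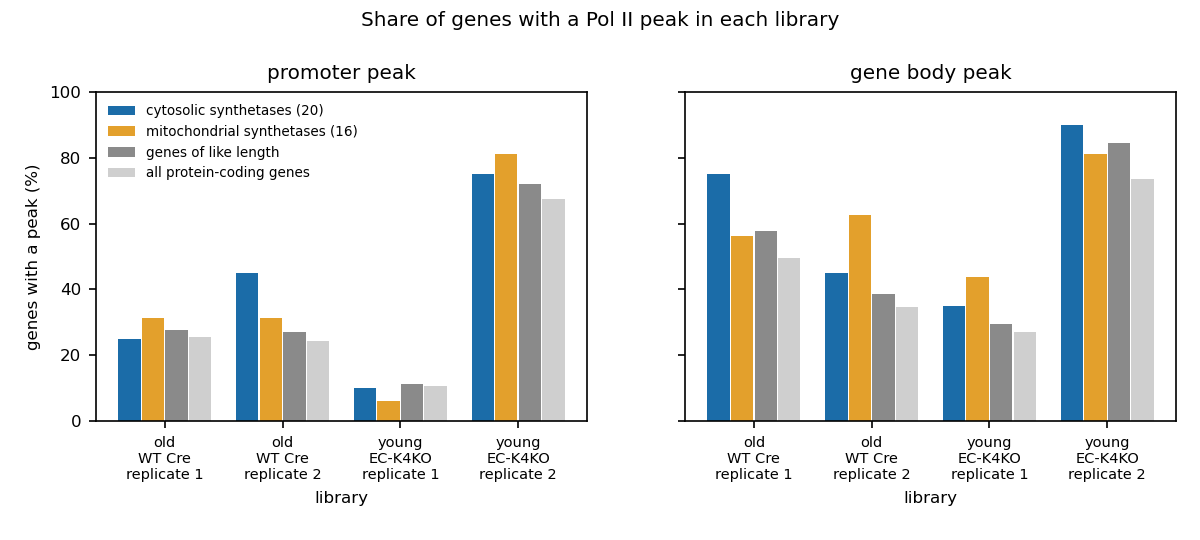
Bars give the percent of genes with a promoter peak (left) or a gene body peak (right) in each library, for 20 cytosolic and 16 mitochondrial synthetase genes, genes of like length and all protein-coding genes. In young EC-K4KO replicate 1 all 4 promoter bars are under 12%, and in young EC-K4KO replicate 2 they are all above 67%.

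A promoter peak in all 4 libraries was rare among the members, as it was among all genes. By number of libraries with a promoter peak, from 0 to 4, the members numbered 6, 13, 10, 6 and 1, while all genes were split as 25.4%, 36.2%, 25.2%, 10.9% and 2.22%. Both old WT Cre libraries had a promoter peak at 6 members, Ears2 (mitochondrial glutamate), Fars2 (mitochondrial phenylalanine), Kars, Rars2, Tars and Yars, against 10.1% of all genes. Both young EC-K4KO libraries had one at 3 members, Cars (cysteine), Fars2 and Iars, against 9.14%. Young EC-K4KO replicate 2 alone had a peak at 12 members, against 30.5% of all genes. These were Aars (alanine), Farsb (the other phenylalanine subunit), Gars, Mars, Nars (asparagine) and Vars (valine) in the cytosol, and Aars2, Cars2, Lars2 (leucine), Mars2, Nars2 and Tars2 in mitochondria.

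Fars2 was the one member with a promoter peak in all 4 libraries, which held for 2.22% of all genes. The gene (ENSMUSG00000021420.13, mm10 chr13:36117412-36537597, plus strand) is the longest member at 420186 bp, and a TSS of Lyrm4, a gene of the LYR motif family, lies 114 bp from one of its own. Its highest promoter peak stacked 31, 20, 14 and 26 fragments. Scaled to fragments per 1000000 of the library (FPM), the old WT Cre values were 0.472 and 0.728 and the young EC-K4KO values 0.397 and 1.15, so the lowest and the highest library were both young EC-K4KO. The means were 0.600 ± 0.182 and 0.771 ± 0.529 (SD, n = 2 each), and the difference of 0.171 FPM was within the spread (p = 1 in the two-sided exact permutation test, which for 2 against 2 can give 0.3333 at the least). It was -0.203 FPM once young EC-K4KO replicate 2 was left out. Fold enrichment, the pileup relative to local background, was 6.01, 6.48, 4.29 and 8.61, again with overlapping groups. With the peak nearest to a TSS in place of the highest, the young mean was the lower one (a difference of -0.225 FPM, exact permutation test, p = 0.3333, the smallest possible). The summits lay 59 bases before a TSS in old WT Cre replicate 1 and 96, 49 and 26 bases after one in the others. Each was measured from the nearest TSS of the gene, which was not the same one throughout. The old WT Cre peaks, at chr13:36117279-36117511 and chr13:36117728-36118059, did not overlap, so the compared values do not come from one shared site. At a q-value of at most 1e-05, no member kept a promoter peak in all 4 libraries, and Fars2 and Rars2 kept one in 3.

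Tars was the one member with a promoter peak in the old WT Cre pair and not in the young EC-K4KO pair, a pattern shown by 0.784% of all genes. Tars (ENSMUSG00000022241.6, mm10 chr15:11382301-11399665, minus strand) makes the cytosolic threonine enzyme. Its peaks stacked 20 and 13 fragments, or 0.304 and 0.473 FPM, with fold enrichments of 3.94 and 5.22 and summits 152 and 185 bases after the TSS. Ranked by q-value, they stood at percentiles 46.5 and 52.8 among the promoter peaks of their libraries. No call was made in young EC-K4KO, which does not show that Pol II was absent there. At a fold enrichment of at least 4, and with lists of equal length, Tars was no longer called in the old WT Cre pair and no member had this pattern. When only peaks with a summit nearest to the gene's own TSS were counted, Rars2 shared it. The opposite pattern, both young EC-K4KO and neither old WT Cre library, was found at 0 members against 3.12% of all genes. Farsa had a peak in old WT Cre replicate 2 alone, with 13 fragments and a fold enrichment of 4.36.

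Iars and Yars, the other genes with ATF4 letters, showed other patterns than Tars. Iars had none in old WT Cre replicate 1 and stacked 12 fragments in its replicate 2, with 15 and 12 for young EC-K4KO. Its summit in old WT Cre replicate 2 lay in an intron, 4057 bases after the gene start and 1236 bases before an internal TSS, which was the nearest. The summits of the highest young EC-K4KO peaks lay 93 and 135 bases after the nearest TSS, close to the gene start. Young EC-K4KO replicate 2 also had a lower Iars peak, 5383 bases after the gene start and 90 bases after the internal TSS. Yars stacked 16 and 10 fragments in old WT Cre, had no peak in young EC-K4KO replicate 1, and stacked 17 in replicate 2. In the old WT Cre libraries a Yars summit lay 658 and 679 bases before its TSS, on the side of S100pbp, whose own TSS is 33 bp away. Old WT Cre replicate 2 had another Yars peak of the same pileup, with its summit 225 bases after the TSS. Across these 3 genes, each library pattern was different.

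Among the remaining genes with a promoter peak in 3 libraries, Ears2 lacked one in young EC-K4KO replicate 1 and stacked 17, 21 and 35 fragments in the other libraries. At 1.54 FPM, its peak in young EC-K4KO replicate 2 was the highest promoter peak of any member. Kars stacked 17, 15 and 15 fragments in those 3 libraries, and Rars2 stacked 21, 14 and 16. The Kars summits lay 766, 611 and 264 bases before its nearest TSS, and a TSS of Terf2ip lies 75 bp from one of Kars. Cars lacked a peak in old WT Cre replicate 2 and stacked 22, 15 and 19 in the other libraries. All of these counts were at most 35 fragments, so they rest on shallow stacks.

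Promoter peaks were found in 2 libraries at 10 members. Of these, Dars (aspartate), Eprs (glutamate and proline), Rars (arginine), Sars (serine), Wars2 and Yars2 had them in old WT Cre replicate 2 and young EC-K4KO replicate 2. Their fold enrichments were 4.10 to 5.22 in old WT Cre replicate 2 and 5.91 to 12.85 in young EC-K4KO replicate 2, where Dars had the highest of any member promoter. Hars and Hars2 (histidine), whose TSSs lie 26 bp apart, and Iars2 had them in old WT Cre replicate 1 and young EC-K4KO replicate 2. The Hars and Hars2 peaks were the same peaks, with 22 and 19 fragments, and cannot be assigned to one gene.

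No promoter peak was called in any library at 6 members, against 25.4% of all genes. They were Lars (leucine), Qars (glutamine) and Wars (tryptophan) in the cytosol, and Pars2 (proline), Sars2 (serine) and Vars2 in mitochondria. Lars and Qars make parts of the multi-synthetase complex. At Lars the gene body still held 5, 2, 3 and 5 peaks, while Qars held none in any library.

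A TSS of another protein-coding gene lay within 1500 bp of a TSS of 9 members, and such windows take in peaks of either gene. The partners were Hars with Hars2, Terf2ip at Kars (75 bp), Wdr25 at Wars (98 bp), S100pbp at Yars (33 bp), Ubfd1 at Ears2 (88 bp), Lyrm4 at Fars2 (114 bp), Orc3 at Rars2 (13 bp) and Mrps12 at Sars2 (182 bp). Hars and Hars2 are both among the 9, so their shared peak counted for each in old WT Cre replicate 1 and young EC-K4KO replicate 2. Of these 9, 7, 5, 1 and 7 had a promoter peak, against 3, 9, 2 and 21 of the 27 others. In old WT Cre replicate 1 that is 77.8% against 11.1%, and the other 3 libraries gave 55.6% against 33.3%, 11.1% against 7.41%, and 77.8% against 77.8%. Over all genes the corresponding shares were 33.8% against 24.4%, 37.0% against 22.6%, 15.9% against 9.85% and 83.4% against 65.1%.

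Where promoter peaks were called, their median position was just downstream of the TSS. The median summit of the highest peak was 58.5, 116.5, 93 and 117 bases after the nearest TSS, against 137, 130, 53 and 97 over all genes with a promoter peak. Summits in the first 500 bases after the TSS made up 4 of 10, 9 of 14, 2 of 3 and 17 of 28 member peaks, against 40.8%, 49.7%, 34.5% and 42.1% over all genes with one. The median fold enrichment of the member peaks was 4.04, 4.66, 4.29 and 7.03, against 3.94, 4.997, 4.16 and 5.80 over all genes with one. Ranked by q-value among all promoter peaks of the same library, the members' median percentile was between 35 and 67.4.

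**Figure D3:**
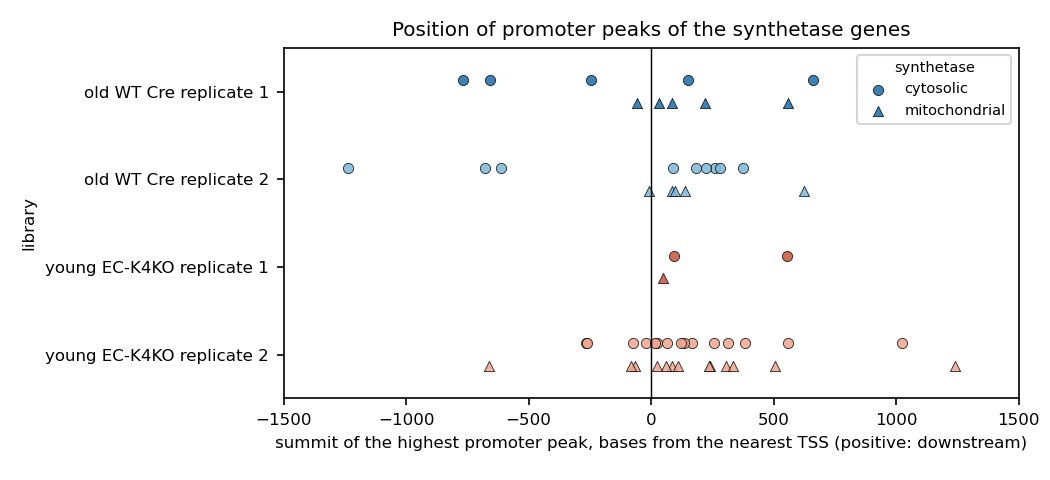
Each point is the summit of the highest promoter peak of one synthetase gene, placed by its distance in bases from the nearest TSS of that gene (positive is downstream), with circles for cytosolic and triangles for mitochondrial genes and one row per library. Of the points, 4, 9, 2 and 17 lie within 500 bases downstream, and the Iars peak of old WT Cre replicate 2 lies farthest to the left, at -1236, measured from an internal TSS of that gene.

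Gene bodies held Pol II peaks at more synthetase genes than promoters did, as over all genes, although in young EC-K4KO replicate 2 the order turned at a fold enrichment of at least 4 (27 promoters, 26 bodies) and with a window of 3000 bp (31 and 29). The gene body is the gene span more than 1500 bp from each of its own TSSs. For old WT Cre, 24 and 19 of 36 members had a body peak, against 49.4% and 34.5% of the 20563 protein-coding genes with such bases. For young EC-K4KO, 14 and 31 had one, against 27.1% and 73.6%. Against genes of like length, where the shares were 57.8%, 38.7%, 29.4% and 84.6%, the members were higher by 8.47 ± 5.19 percentage points (SD, n = 4). They were higher in 4 of 4 libraries, by 8.82, 14.1, 9.46 and 1.54 points. The mean was 4.55 ± 7.03 points at a fold enrichment of at least 4, smaller than its spread, and 14.5 points with lists of equal length. The cytosolic minus mitochondrial difference was 0.313 ± 16.4 points (SD, n = 4), with both signs among the libraries.

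The member bodies held 64, 32, 27 and 164 peaks, or 0.419, 0.210, 0.177 and 1.07 per 10 kb, against 0.338, 0.155, 0.124 and 0.990 per 10 kb over all genes. Of the summits, 55, 24, 22 and 132 lay in introns and 9, 8, 5 and 32 in exons. A body peak was found in all 4 libraries at 10 members, which were Gars, Iars and Lars in the cytosol and Ears2, Fars2, Iars2, Lars2, Nars2, Rars2 and Wars2 in mitochondria, and 16.3% of all genes did the same. Hars, Qars, Mars2 and Yars2 had none in any library, against 21.5% of all genes. Neither of these shares was matched for gene length, whose median was 24944.5 bp for members and 16639 bp over all genes. Fars2 alone held 8, 6, 8 and 35 of the body peaks over its 415221 body bases.

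Few body peaks were at the same place in different libraries. Overlapping peaks were merged into 246 regions, of which 214 (86.99%) were found in 1 library, 24 in 2, 7 in 3 and 1 in all 4. Over all genes 89.8% of 135972 such regions were found in 1 library and 0.358% in all 4. The 7 regions in 3 libraries lay in Fars2, Lars and Nars2 (2 each) and in Farsa (1), and their fold enrichments reached 8.04 at most. One of the regions in Fars2 and one in Nars2 had 691 and 2361 similar stretches on the assembled chromosomes (blastn, E-value at most 1e-10), and the other 5 had 0.

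The region found in all 4 libraries was the last exon of Lars2, the mitochondrial leucine enzyme, and it held by far the tallest member peak. The peak of young EC-K4KO replicate 2 spans mm10 chr9:123461803-123462187, beyond the end of the coding part at 123461675 and so in the 3′ UTR, about 95 kb from the TSS at 123366927. It stacked 696, 224, 494 and 432 fragments, which was 18.8, 10.7, 26 and 11.4 times the next tallest member peak of each library. Fold enrichments were 35.6 and 34.4 for old WT Cre against 32.2 and 37.1 for young EC-K4KO, which overlapped (difference -0.354, two-sided exact permutation test, p = 1). Scaled by depth, old WT Cre had 10.6 and 8.16 FPM against 14.02 and 19.03 FPM for young EC-K4KO. The groups did not overlap on that scale, and the difference of 7.15 FPM gave p = 0.3333, the smallest the exact permutation test can give here. The promoter of Lars2 had a peak in young EC-K4KO replicate 2 alone, with 15 fragments. The sequence under the peak is not unique, with 55 similar stretches on the assembled chromosomes. The longest matched 233 bases at 98.3% identity, at chr12:78350941-78351173. Of the 15 matches of 150 bases or more, 3, 1, 3 and 5 carried a peak of their own in the 4 libraries, with fold enrichments up to 38.5, 38.8, 37.6 and 41.8. How many of the fragments at Lars2 arose from those copies was not tested.

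**Figure D4:**
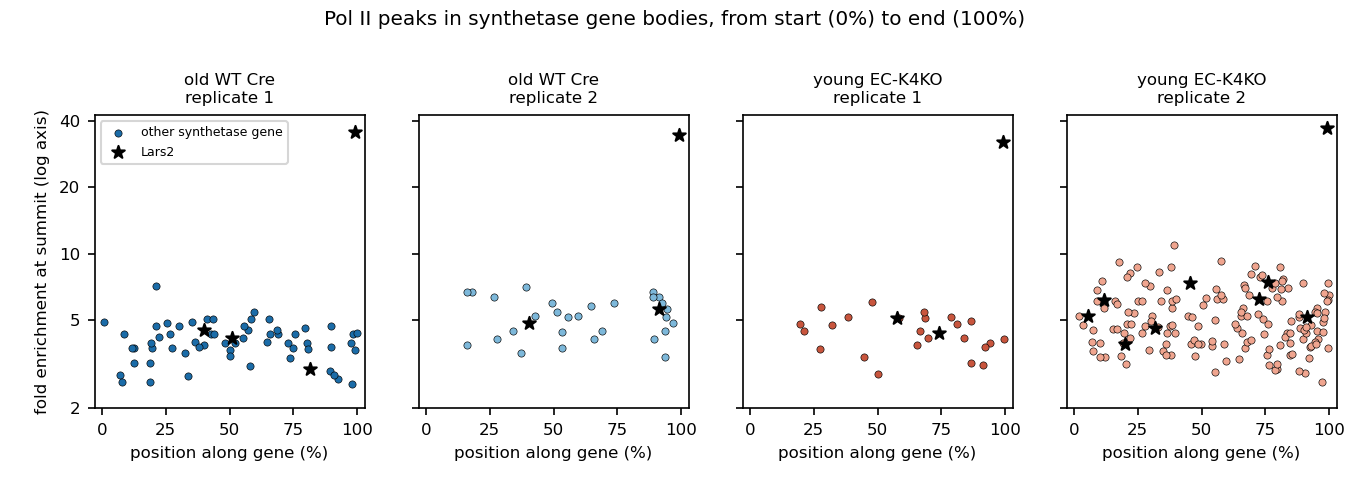
Each panel is a library, and each point a Pol II peak in the body of a synthetase gene, placed by its position along the gene (percent of gene length from start to end) and its fold enrichment at the summit on a log axis; stars are Lars2. The star at the end of Lars2 stands at 32.2 to 37.1 in the 4 panels, while other members reach at most 7.14, 7.099, 6.03 and 10.97.

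Lists of genes that work with the synthetases were also measured, and their promoter counts are to be read against 25.6%, 24.5%, 10.6% and 67.5% of all genes. Of 7 partner genes, which cover the complex scaffolds Aimp1, Aimp2 and Eef1e1, the amidotransferase subunits Gatb, Gatc and Qrsl1 and the formyltransferase Mtfmt, the numbers with one were 2, 2, 2 and 6. Gatb had one in 3 libraries and Mtfmt in none. Of 8 translation elongation factors 3, 3, 1 and 6 had one, and Eef1b2, a nucleotide exchange factor subunit for eEF1A, had one in all 4. Of 16 genes of amino acid synthesis, transport and sensing, 5, 6, 1 and 12 had one. The serine synthesis gene Psat1 and the transporters Slc3a2 and Slc7a1 had one in 3 libraries, while Shmt2, Slc1a5 and Slc7a11 had none. Asns, the asparagine synthetase gene and a well-known ATF4 target, had one in old WT Cre replicate 2 alone, and Atf4 itself in old WT Cre replicate 2 and young EC-K4KO replicate 2.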

How the data were processed

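Per the paper, the authors aligned reads from Pol II ChIP-seq (MNase-digested chromatin of sorted brain ECs) to mm10 with Bowtie2 and removed duplicates. Per the file headers, the authors called peaks in each library with MACS 2.2.7.1 on read pairs without a control at q of 0.01. The deposited tables give each peak's pileup (a coverage signal in fragments), its fold enrichment (a ratio to local background) and its p-value and q-value as −log10. No score was normalized between libraries, so pileups were scaled to 1000000 fragments of their own library (FPM), which assumes equal signal over background.

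Peaks were assigned with the GENCODE M21 basic annotation in Python 3.11.15 (numpy 2.4.6, pandas 2.3.3, scipy 1.17.1). Like-length shares used 10 length classes. Sequences came from RefSeq GRCm38.p6, read with samtools 1.23.1 and searched with BLAST 2.17.0. All 200 promoter and 200 body peaks planted in simulated lists were found. They were planted inside the windows that were then searched, so this checks only the lookup of peaks. Described in full were members with promoter peaks in all 4 libraries, in both of one group only, or in none, and those with TGATGCAA. The member rule uses no measured value, but the members, lists and alternatives were chosen with earlier results of these data known. One listed partner gene and one promoter sequence are not reported here.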

Additional observations from a re-analysis of the deposited data

How the results depend on the processing

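At q of at most 1e-05, old WT Cre replicate 2 had 6 members with a promoter peak and 11 with a body peak, young EC-K4KO replicate 1 had 1 and 7, the both-library promoter counts were 3 for the old and 1 for the young group, and the cytosolic minus mitochondrial promoter difference was -0.625 percentage points. At a fold enrichment of at least 4, old WT Cre replicate 1 had 5 members with a promoter peak and young EC-K4KO replicate 1 had 8 with a body peak. The count in both old WT Cre libraries was then 2, and the compartment differences were -1.875 points at promoters and -7.5 in bodies, while the body excess over genes of like length was 4.55 ± 7.03 points (SD, n = 4), smaller than its spread. With lists of equal length, the promoter count was 5 for old WT Cre replicate 1, and young EC-K4KO replicate 2 had a promoter count of 15 and a body count of 19. Both-library counts were 2 and 1, compartment differences -4.375 and -5.31 points, and the body excess over genes of like length 14.5 points. With a window of 500 bp the compartment differences were -2.19 and -1.875 points. Counting only peaks whose summit lay nearest to the gene's own TSS gave -4.69 points at promoters. Both old WT Cre libraries then had a promoter peak at 4 members, with Kars and Yars no longer among them. With 1 library of a group left out, the both-library count is only that of the remaining library, 10 to 14 for old WT Cre and 3 to 28 for young EC-K4KO. Leaving out 1 library in turn gave compartment differences from -2.92 to 3.75 points at promoters (negative without old WT Cre replicate 2) and from -5.83 to 6.25 in bodies (-5.83 without old WT Cre replicate 1 and -2.5 without young EC-K4KO replicate 2). The Fars2 difference, with this alternative added after seeing the data, ran from -0.203 (without young EC-K4KO replicate 2) to 0.545, and was -0.225 with the peak nearest to a TSS. The excess of members over genes of like length stayed above 0 each time, at 0.889 to 5.78 points at promoters and 6.60 to 10.8 in bodies. Of 122 values under alternatives, 91 kept their sign and moved by less than the spread between libraries, for counts by at most 1.5 times, or, for Fars2, kept their sign alone. The cause of these shifts was not tested. Counts and shares come from no test, and the labels do not say whether replicate numbers mark a shared animal or batch. With the replicate number as a block, also added after seeing the data, the Fars2 difference stayed at 0.171 (exact sign-flip test, p = 1), and the Lars2 last exon gave 7.15 FPM (exact sign-flip test, p = 0.5, the smallest that 2 pairs allow). The smallest called peaks held 7 to 13 fragments, which limits what weak Pol II signal could be called, and the exact permutation test of 2 libraries against 2 gives no p below 0.3333.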
